A study of Bos taurus with 90 samples.

Results

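Mural granulosa cells (MGCs) line the wall of the antral follicle, and cumulus cells (CCs) surround the oocyte inside it. The genes described here are 150 of the 27270 genes in the deposited table that were lowest in MGCs of medium follicles. They were selected on measured values, the MGC CPM (a gene's count when the library's total count is scaled to 1000000) of 10 bovine follicles, namely small follicles S4, S5 and S6, medium follicles M5, M6 and M8, and large follicles L5, L8, L9 and L10. A gene entered when its mean was at least 10 CPM in both small and large follicles and each of its 3 medium values lay below all 7 small and large values. The 150 with the largest score were then kept, the score being the lower of the small and large means minus the medium mean on the log2(CPM + 1) scale.

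RNA-seq was performed on MGCs, a pool of CCs and the single oocyte of each of 30 follicles from slaughterhouse ovaries, 10 small, 10 medium and 10 large, without treatment or genetic change, which gave 90 libraries. Labelled diameters ran from 3.1 to 3.8 mm in small, from 6.2 to 7.1 mm in medium and from 9.6 to 11.6 mm in large follicles. The study removed 3 follicles and took 10 of the remaining 27 as healthy, by the MGC expression of marker genes that included high FSHR, the receptor for follicle-stimulating hormone, so the 10 follicles of the rule had themselves been picked by MGC expression. The other 17 retained follicles, 6 small, 5 medium and 6 large, were not used by the rule. Each replicate is another follicle, but which follicles shared an animal is not given in the sources used here.

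Granulosa cells divide, make oestradiol under follicle-stimulating hormone and exchange signals with the oocyte. As the antrum enlarges, the mural layer and the cumulus layer take on different functions, and the mural layer of a growing follicle keeps proliferating before it turns toward luteinization. A follicle that stops growing goes through atresia, in which granulosa cells die. Genes in the deposited file carry Ensembl identifiers alone, and none of the tables used here links them to symbols, so the functions of the 150 genes are not described. The genes are called by their rank in the score, and the labelled cell types could not be checked against marker genes.

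Total counts ran from 26739954 to 39266980 in the 30 MGC libraries, from 1666212 to 40180192 in CCs and from 8442938 to 53173320 in oocytes. The CC library of S7 was the shallowest, held counts for 7 of the 150 genes and was left out of CC results. Totals for M5, M6 and M8 MGCs were 35466261, 37515617 and 39266980, within the range of the other MGC libraries or, for M8, the highest. The share of counts taken by the 10 most abundant genes was 16.6%, 12.3% and 11.6% in these 3 libraries, against 7.78% to 19.2% over all 30.

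Of 7789 genes with the minimum means, 206 met the rule (2.64%), and 670 met its mirror image (8.6%), in which every medium value lay above all small and large values. The lower genes were thus 23.5% of both kinds together. With TMM-scaled CPM, in which edgeR's factors correct for composition, 337 genes met the rule and 525 its mirror image, and the lower genes were 39.1%. These factors ran from 0.867 in L10 to 1.11 in L8, and 107 of the 150 genes chosen on the TMM scale were also among the 150 described here.

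The number of genes that met the rule depended on single follicles. It was 644 without L10 and 485 without M5, and lay between 210 and 292 when any of the other 8 follicles was left out. Of the 150 genes with the highest score without L10, 48 were among those described here, and without M5 there were 59. Without any of the other 8, between 111 and 140 were.

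As chosen, the 150 genes had a median mean of 30.01 CPM in small, 14.9 CPM in medium and 37.2 CPM in large follicles. Scores ran from 0.43 to 2.61 on the log2 scale with a median of 0.73, and 41 genes scored 1 or more. Large means were above small means in 109 of the 150 genes. At the limit, rank 150 scored 0.4267, with means of 227 CPM in small, 169 CPM in medium and 256 CPM in large follicles. Rank 151, the first gene left out, scored 0.4262 with means of 74.6, 55.4 and 88.7 CPM.

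The most extreme member was ENSBTAG00000010977 (rank 1). In MGCs of small follicles S4, S5 and S6 it was at 16.0, 16.7 and 17.1 CPM, and in M5, M6 and M8 at 2.62, 1.2 and 2.01 CPM. In L5, L8, L9 and L10 it was at 23.3, 45.0, 20.1 and 3.42 CPM, so that L10 lay just above the medium follicles and far below the other large ones. The small mean was 8.53-fold and the large mean 11.8-fold the medium mean. The rule used these values, and no test was made on them.

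ENSBTAG00000024081 (rank 2) had 19.6, 14.9 and 16.6 CPM in S4, S5 and S6, and 7.92, 2.88 and 3.64 CPM in M5, M6 and M8. In L5, L8, L9 and L10 it had 15.4, 33.5, 34.0 and 9.04 CPM. The nearest pair across the groups was again L10 and M5. Rank 3 had 21.9, 44.4 and 29.1 CPM in small, 11.1, 5.62 and 10.6 CPM in medium, and 33.6, 68.5, 17.7 and 19.1 CPM in large follicles. Here L9, not L10, was the lowest of the large follicles.

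Rank 126 was the most abundant member, with 3554, 3160 and 2996 CPM in small, 2358, 2239 and 2164 CPM in medium, and 2874, 4760, 2863 and 2742 CPM in large follicles. Its medium libraries differed little among themselves, and the large mean was 1.47-fold the medium mean. The members thus covered a wide range of levels, with small means from 10.2 to 3237 CPM, 27 of them at 100 CPM or more.

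Within the medium group the 3 follicles did not share the low values equally. M6 held the lowest value of the 3 for 86 members, M8 for 48 and M5 for 16, while M5 held the highest for 91. Among the 7 small and large follicles, L10 was lowest for 73 members. The gap between the highest medium value and the lowest small or large value had a median of 0.17 on the log2 scale.

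The level of the whole group in each MGC library was described by the median log2(CPM + 1) over the 150 genes. It was 4.97, 4.94 and 4.89 in S4, S5 and S6, and 4.14, 3.84 and 4.05 in M5, M6 and M8. L5, L8, L9 and L10 were at 5.12, 5.54, 5.29 and 4.79. The 150 genes took 1.33% to 1.52% of all MGC counts in the small, 0.819% to 0.960% in the medium and 1.25% to 2.17% in the large follicles of the rule.

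The other medium follicles were not low. Their medians were 5.12 in M1, 5.45 in M2, 5.74 in M3, 5.61 in M4 and 5.41 in M7, all above each of the 3 medium follicles of the rule. The 6 other small follicles ran from 4.68 through a median of 5.22 to 5.85, and the 6 other large follicles from 4.87 through 5.81 to 6.06, so the 5 medium values lay inside the ranges of both. The 3 removed follicles were at 5.57 for the small and at 5.63 and 5.66 for the medium ones. M5, M6 and M8 were therefore the 3 lowest of all 30 MGC libraries.

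**Figure D1:**
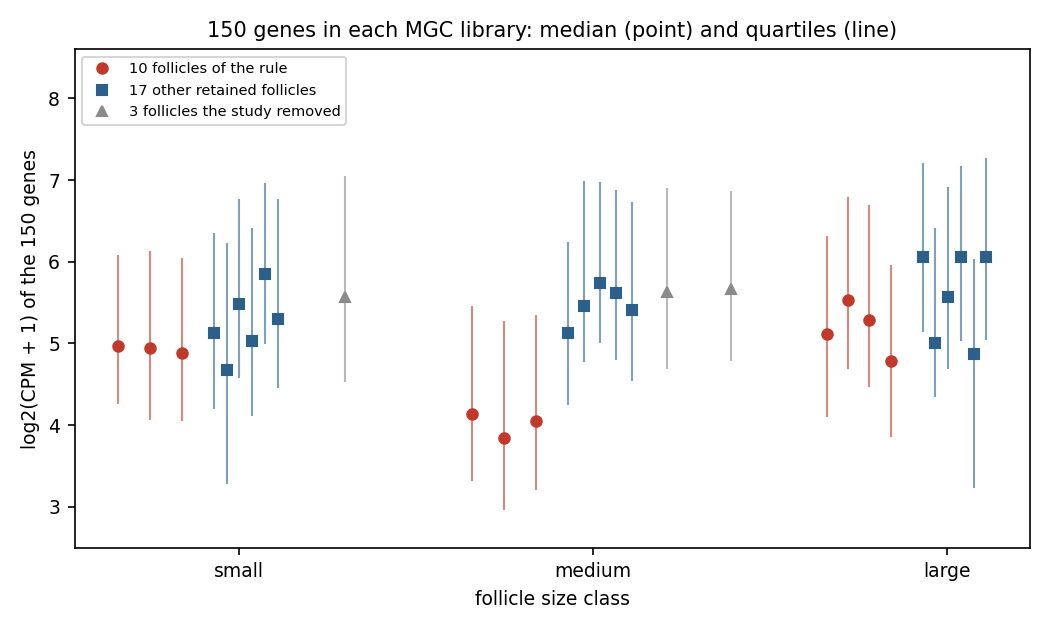
Median (point) and quartiles (line) of log2(CPM + 1) over the 150 genes in each of the 30 MGC libraries, by follicle size class and by whether the rule used the follicle. The 3 medium follicles of the rule sit at 3.84 to 4.14, below all other libraries, and the 5 other medium follicles at 5.12 to 5.74.

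The 3 low libraries carried 2 identifier prefixes, the first 3 digits of the follicle's number, whose meaning is not given in the sources used here. M5 and M8 shared a prefix that no other follicle had. M6 shared its own with 1 removed medium follicle, at a median of 5.66 against 3.84 in M6. Within the prefix that held retained follicles of all sizes, the medians were 4.68 in small S2, 5.74 in medium M3, and 5.00 and 4.79 in large L2 and L10. The small follicles of the rule all had a prefix that no other follicle had, so for small follicles prefix and set cannot be told apart. The prefixes of M5, M6 and M8 occurred in no small or large follicle. Among the follicles of the rule, medium size and prefix therefore cannot be told apart either.

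Compared within a size class, 146 of the 150 genes had a higher mean in the other medium follicles than in M5, M6 and M8 (60.0% of all genes). The median difference was 1.30 on the log2 scale against 0.13 over all genes. All 5 other medium values were above all 3 values of the rule for 120 members (background 19.9% of 14751 genes). In small follicles the median difference was 0.27 (0.18 over all genes) with 14 such members (10.5%), and in large follicles 0.28 (0.14) with 7 (2.58%). The mean was higher in the other follicles for 103 members in small (64.95% of all genes) and 111 in large follicles (66.32%). The medium comparison holds the values that chose the genes and is a description.

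Over all 30 MGC libraries, 46 members had M5, M6 and M8 below every other library, against 0.677% of 14918 genes. The rule had already placed these 3 libraries below 7 of the others for every member, so this count is a description. M6 held the lowest of the 30 values for 37 members, M8 for 36 and M5 for 10. The large follicle L6 held it for 31 and the small follicle S2 for 21, neither of them used by the rule. In L6, 18 members were at or under 1 CPM and 6 had no count. S2 had 12 at or under 1 CPM, and no other MGC library had any. Shares over all genes were not counted for these values. L6 had counts for 16211 genes, the fewest of the 30 MGC libraries. In S2 the 100 most abundant genes took 41.8% of counts, the highest such share.

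In the 17 other follicles the stage order could be tested, because the rule did not use them. Genes were called when the p-value from edgeR, adjusted over all 14876 genes, was below 0.05 and the fold change above 2. None of the 150 was called lower or higher in medium follicles than in the mean of small and large ones (0 and 0 by edgeR, 0% of all genes in each direction), and DESeq2 called 0 of them. At an unadjusted edgeR p below 0.05, 5 members were lower and 2 higher, against 3.31% and 1.95% of all genes. The smallest adjusted p among the members was 0.876.

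Fitted differences of the members in these follicles had a median of 0.07 on the log2 scale, with quartiles of -0.18 and 0.38, and a median standard error of 0.31. Over all genes the median was -0.01. The same contrast in the 10 follicles of the rule, which chose the genes, had a member median of -1.01. For 117 of the 150 members the 95% interval from the other follicles lay wholly above -1. The share over all genes was not counted, so this number describes the members and does not set them apart.

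**Figure D2:**
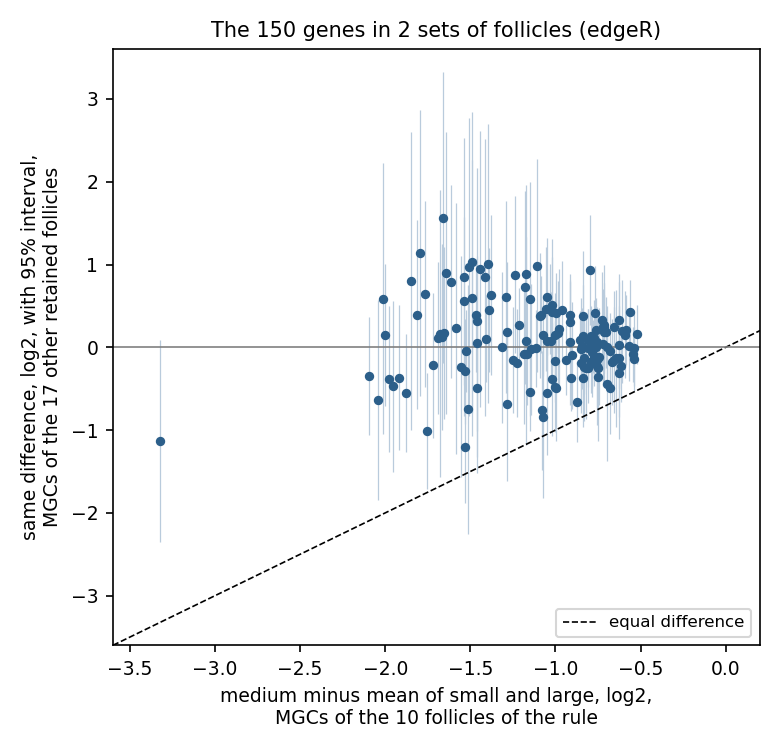
Fitted log2 difference between medium follicles and the mean of small and large follicles for each of the 150 genes, in MGCs of the 10 follicles that chose them (x axis) and of the 17 other retained follicles (y axis, with 95% interval). All x values are negative by choice of the genes, with a median of -1.01, and the y values spread around 0 with a median of 0.07.

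Against small follicles alone, edgeR called 0 members lower and 0 higher in the other medium follicles (0.0269% and 0.00672% of all genes), with 10 and 13 at an unadjusted p below 0.05 (7.57% and 5.27%). DESeq2 called 3 lower and 1 higher (1.52% and 0.25% of 14813 genes with an adjusted p). Against large follicles, edgeR called 0 lower and 0 higher (0% and 0% of all genes) with 2 lower and 0 higher at an unadjusted p below 0.05 (2.15% and 1.24% of all genes), and DESeq2 called 0. The 3 members that DESeq2 called lower were ranks 21, 40 and 75, and the 1 called higher was rank 92. These 4 were picked out once their values were known.

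Rank 21 had the smallest unadjusted p of the members for medium against small and large in the other follicles (0.00176, edgeR adjusted p = 0.876). Its MGC values were 26.3, 46.3 and 31.8 CPM in S4, S5 and S6, and 17.9, 12.6 and 12.3 CPM in M5, M6 and M8. M1, M2, M3, M4 and M7 had 24.6, 31.7, 33.7, 25.5 and 22.4 CPM, all below the other small follicles, which ran from 58.0 through a median of 89.0 to 164 CPM. The other large follicles, from 22.2 through 33.4 to 71.8 CPM, overlapped the medium ones, and the medium-to-large difference was -0.50 with an edgeR adjusted p of 1. The medium-to-small difference was -1.90 on the log2 scale (SE 0.37, n = 5 and 6) with an edgeR adjusted p of 0.0689, and an adjusted p of 0.000271 by DESeq2. The edgeR value passed the threshold without S8, at 0.0332, and without no other single follicle. The 2 removed medium follicles had 49.7 and 90.1 CPM.

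Rank 1 did not overlap between the medium follicles of the rule and the other medium follicles, which had 9.87, 9.51, 15.8, 10.0 and 10.0 CPM. The other small follicles ran from 9.48 through a median of 19.0 to 28.1 CPM, and the other large ones from 0.372 in L6 through 35.5 to 67.2 CPM. The medium values lay at the low end of the small range and below all large follicles but L6. The fitted difference from the mean of small and large was -1.13 (SE 0.58), with an unadjusted p of 0.0671 and an adjusted p of 0.876 by edgeR.

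Rank 2 in the other follicles ran from 8.6 through 33.2 to 97.3 CPM in small, had 19.4, 30.6, 23.1, 37.5 and 18.9 CPM in M1, M2, M3, M4 and M7, and ran from 2.42 through 54.2 to 104 CPM in large follicles. Medium values overlapped both groups. In rank 3, M1 was low at 9.52 CPM, within the range of the medium follicles of the rule, and the other 4 medium follicles had 25.1, 36.1, 17.5 and 28.9 CPM.

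Rank 92 went the other way. Its medium values outside the rule were 12.0, 25.2, 40.9, 26.3 and 24.4 CPM, against 7.67, 5.94 and 8.23 CPM in M5, M6 and M8, and it was called higher in medium than in small follicles by DESeq2 (log2 difference 1.61, adjusted p = 0.00619) but not by edgeR (adjusted p = 0.157).

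**Figure D3:**
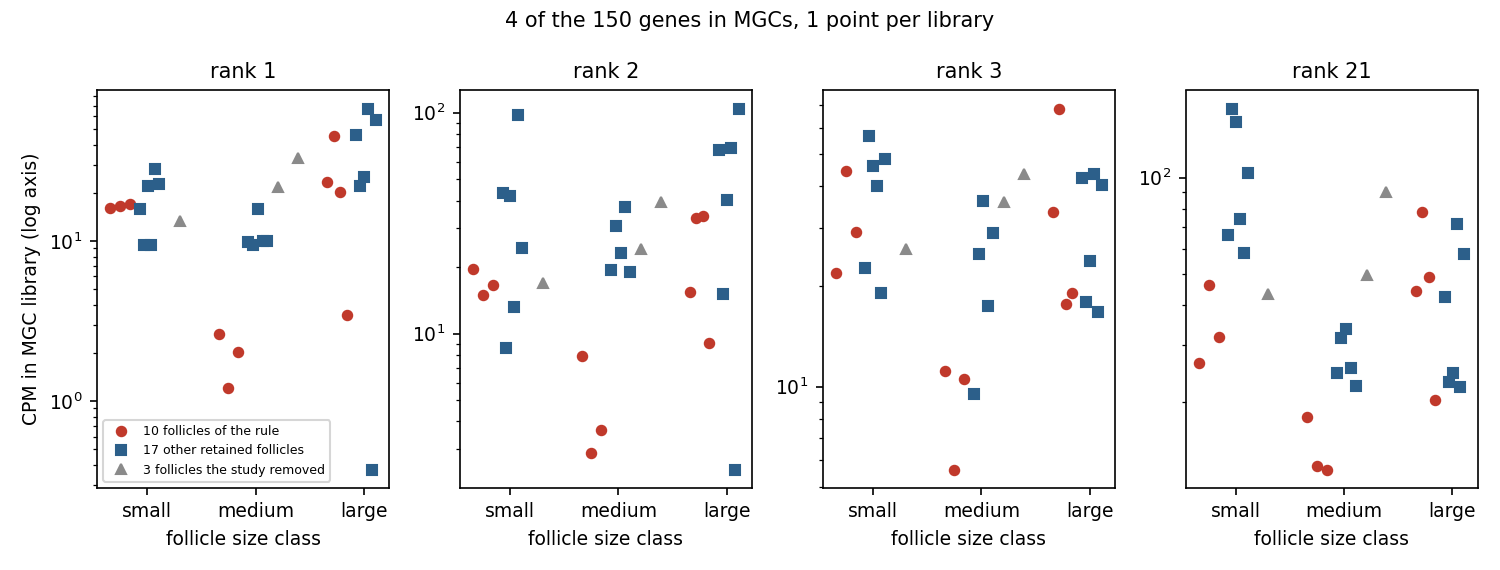
CPM (log axis) of ranks 1, 2, 3 and 21 in the MGC libraries, 1 point per library, by size class and set of follicles. In all 4 genes M5, M6 and M8 hold low values, while the other medium follicles overlap with small or large follicles, and L6 is far below the other large follicles in ranks 1 and 2.

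The order of the means gave the same picture across all members. In the other MGC libraries the medium mean was the lowest of the 3 for 46 of 150 members, or 30.7%, against 33.2% of all genes, and for 0 members did every medium value lie below all small and large ones (0.00672% of all genes). The share with the lowest mean in medium was thus near the background. The medium mean was the highest for 56 members, against 28.6% of all genes.

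Between large and small follicles of the other set, the median MGC difference of the members was 0.18 on the log2 scale, against -0.01 over all genes. EdgeR called 0 of them lower and 0 higher (0.424% and 0.121% of all genes), with 7 lower and 17 higher at an unadjusted p below 0.05 (8.48% and 6.82%). The smallest adjusted p was 0.0691.

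The 150 genes were correlated with each other in MGCs between follicles of one size class. After subtracting stage means, the median Pearson correlation of their log2(CPM + 1) values over the 17 other MGC libraries was 0.29 across 11175 gene pairs, against 0.05 across all pairs of the 7789 genes with the minimum means. It was 0.44 against 0.10 in the 10 MGC libraries of the rule, 0.31 against 0.24 in 16 CC libraries of other follicles but 0.04 against 0.02 in the 10 CC libraries of the rule, and 0.04 against 0.04 in the 17 other oocytes. Pairs share libraries, depth and genes, and these values are descriptions. The SD of a member between other MGC libraries of one stage had a median of 0.64 log2 units, against 0.44 for genes with the minimum means, at median levels of 5.28 and 5.46.

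The CCs of the same follicles, which the rule did not use, did not show the low values as a group. The MGC drop was fixed by the rule, so this contrast between cell types is a description. Member medians in CCs were 4.33, 4.14 and 4.17 in small follicles S4, S5 and S6, 4.23, 3.98 and 3.93 in M5, M6 and M8, and 3.77, 4.10, 3.999 and 3.85 in L5, L8, L9 and L10. The medium values overlapped with both other groups. Over the 26 CC libraries, edgeR called 0 members lower and 0 higher in medium follicles (0% and 0% of 15109 genes), with 3 and 5 at an unadjusted p below 0.05 (1.44% and 5.03%), and DESeq2 called 0. The median fitted difference was 0.10, against 0.03 over all genes.

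By order of means in CCs of the follicles of the rule, medium was lowest for 49 of 150 members (32% of all genes), and 4 members did not overlap, ranks 23, 106, 130 and 144 (1.56%). Rank 23 had 2.47 to 2.78 CPM in the medium, 4.81 to 9.64 CPM in the small and 2.97 to 12.5 CPM in the large follicles. In CCs of the other follicles medium was lowest for 22 members (15.5%), and 0 did not overlap (0%).

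Oocytes gave no group difference either. Member medians were 3.54, 3.36 and 3.48 in S4, S5 and S6, 3.67, 3.21 and 3.69 in M5, M6 and M8, and 3.31 to 3.62 in the 4 large follicles of the rule. Counts were found for 144 of the 150 genes. Over the 27 oocytes, edgeR called 0 members lower and 0 higher in medium follicles (0% and 0% of 14936 genes), with 2 and 5 at an unadjusted p below 0.05 (3.01% and 4.42%), and DESeq2 called 0, giving an adjusted p for 17 of the 144. The median fitted difference was 0.07, against 0.02 over all genes.

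In oocytes of the follicles of the rule, medium was lowest by mean for 37 of 141 members (24.2% of all genes), and ranks 98 and 132 did not overlap (0.766%). In the other follicles these numbers were 14 of 143 (16.6%) and 0 (0%). The remaining 6 of the 150 genes had no count in any of the 30 oocytes, where 3 counts in the pooled libraries would be 0.00334 CPM. This limit covers counting error only.

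**Figure D4:**
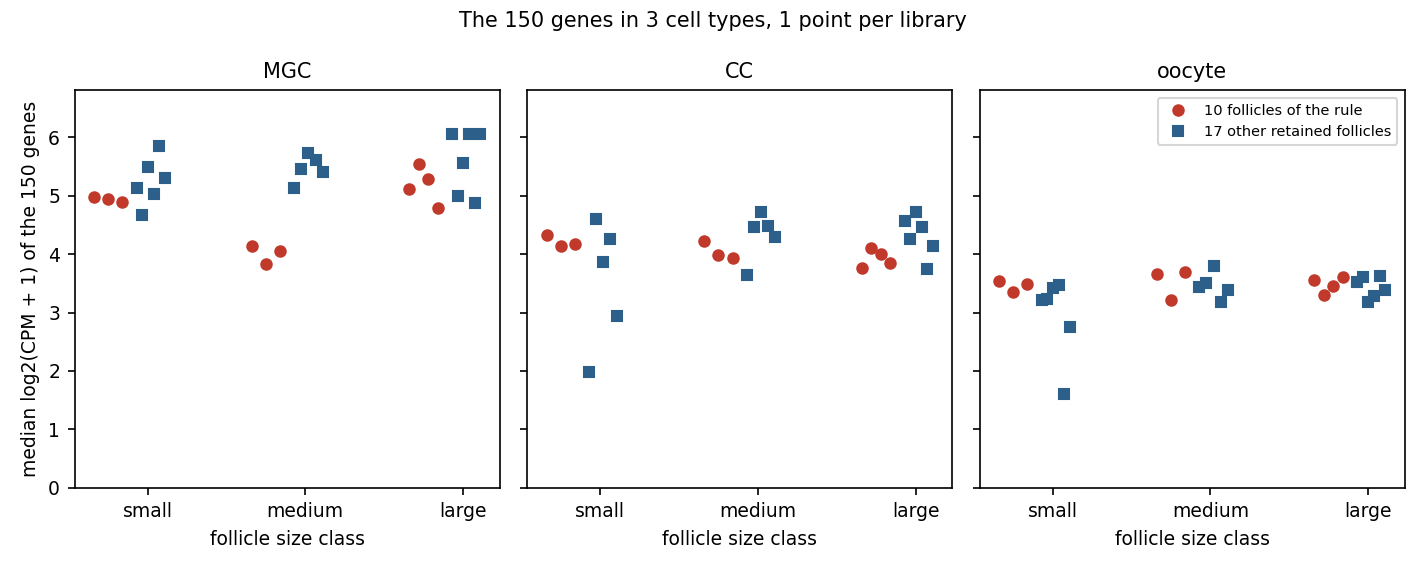
Median log2(CPM + 1) of the 150 genes in each library of MGCs, CCs and oocytes of the 27 retained follicles, without the CC library of S7. The drop in MGCs of the 3 medium follicles of the rule is the one by which the genes were chosen. The CC and oocyte values of these follicles, 3.93 to 4.23 and 3.21 to 3.69, were not used by the rule and overlap with those of other sizes.

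MGCs held more of these transcripts than CCs. In the 16 other follicles with both libraries, compared within follicle, edgeR called 83 members higher in MGCs and 11 lower, with a median difference of 1.42 on the log2 scale. Of all 15100 genes tested, 31.1% were called higher and 20.9% lower, and of the 7789 genes with the minimum means in MGCs, 28.9% and 20.2%. MGC libraries were made from bulk RNA and CC libraries from amplified cDNA, so cell type and protocol cannot be told apart. In either kind of sample fewer cells of a type and less RNA per cell cannot be told apart.

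The members called higher in MGCs had a median score of 0.87, against 0.60 for the 56 members not called and 0.61 for the 11 called lower. In the same order, scores ran from 0.44 to 2.61, 0.43 to 1.64 and 0.46 to 1.66, and so overlapped. Members called higher in MGCs were 16 of the first 20 ranks and 55.3% of all members. The score is the measure that chose the genes, so these values are a description. Rank 1 was 3.68 log2 units (SE 0.62) and rank 2 was 5.77 units (SE 0.65) higher in MGCs, with edgeR adjusted p of 2.7e-05 and 1.8e-07. Rank 3 was 1.39 log2 units lower in MGCs (SE 0.27), and had up to 340 CPM in CCs.

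Single members differed widely between the 3 cell types. ENSBTAG00000010977 (rank 1) was at 0 to 8.82 CPM in the CCs of retained follicles and at 46.0 to 125 CPM in their oocytes and was higher in the oocyte than in the MGCs of the same follicle in 27 of 27. In oocytes of M5, M6 and M8 it was at 76.8, 125 and 82.7 CPM, against 101, 103 and 113 CPM in S4, S5 and S6 and 65.3 to 125 CPM in the large follicles of the rule, so the medium values lay within the range of the large ones. Ranks 2, 21 and 86 had no count in any oocyte.

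With follicle size, members were called in CCs and oocytes no more often than, or about as often as, all genes. EdgeR called 1 of 150 members lower and 1 higher in CCs of large than of small follicles (2.09% and 1.25% of all genes), and 1 of 144 lower and 1 higher in oocytes (0.582% and 0.924%). These single calls are given for their values and not as a property of the group. The CC member that rose was ENSBTAG00000004063 (rank 86). It was at 3.19, 7.76 and 5.13 CPM in S4, S5 and S6, at 0, 3.00, 0.291, 4.37 and 0.394 CPM in the 5 other small follicles, at 7.74 to 16.2 CPM in the 4 large follicles of the rule and at 6.02, 11.7 and 14.3 CPM as lowest, median and highest of the 6 other large ones. Small and large follicles overlapped only through S5. The difference was 1.93 on the log2 scale (SE 0.56, n = 8 and 10, edgeR adjusted p = 0.0490), and the call remained in 7 of 26 fits that left out 1 follicle (adjusted p from 0.0314 to 0.115). DESeq2 gave an adjusted p of 0.00401, and with the identifier prefix as covariate the edgeR adjusted p was 0.237.

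The oocyte member that rose was ENSBTAG00000018252 (rank 58), by 1.82 on the log2 scale (SE 0.46, n = 9 and 10, edgeR adjusted p = 0.0191). Large oocytes of L9 and L4 held 185 and 91.9 CPM, and the other 8 large oocytes 11.5 to 26.5 CPM, against 4.06 to 25.7 CPM in small ones, so most values overlapped. The call remained in 26 of 27 fits that left out 1 follicle, and DESeq2 gave an adjusted p of 0.00145. Without L9 the difference was 1.21 and the edgeR adjusted p 0.0607. With the identifier prefix as covariate the edgeR adjusted p was 0.653. In MGCs the same gene was at 331, 391.8 and 321 CPM in S4, S5 and S6 and at 176, 135 and 194 CPM in M5, M6 and M8. The other medium follicles had 413, 204, 142, 144 and 155 CPM, of which M1 alone was above the level of the small follicles of the rule.

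The member called lower in CCs of large follicles was rank 49, by -1.35 on the log2 scale (SE 0.39, edgeR adjusted p = 0.0484), and the call remained in 9 of 26 fits without 1 follicle. It lost the call without S1 (adjusted p = 0.165) and without S9 (0.145), the 2 small CC libraries with the highest values, 118 and 128 CPM. DESeq2 gave an adjusted p of 0.0138 for rank 49. With the identifier prefix as covariate the difference was -0.83 and the edgeR adjusted p 0.445. The member called lower in large oocytes, rank 108, had 0 counts in all 10 large oocytes and in 6 of 9 small ones, with no more than 0.940 CPM in the remaining small ones, and no fold is given for it. Its edgeR adjusted p was 0.0421, and the call remained in 14 of 27 fits without 1 follicle. With the prefix as covariate the edgeR adjusted p was 0.825, and DESeq2 gave no adjusted p.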

How the data were processed

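Counts of 90 libraries were used as deposited. Per the submitters' processing notes, the authors counted reads over genes with featureCounts (Subread) on ARS-UCD 1.2; the aligner was HISAT2 2.2.1 in these notes but STAR in the methods, and this was not resolved here. The deposited values are raw counts per gene, not normalized and one column per library. CC and oocyte cDNA had been amplified.

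Members and lists were chosen with earlier results of these data known. Planned gene lists and cell type markers were left out for want of a table that links identifiers to symbols; the rule for named genes then allowed at most 2 identifiers that rose and 2 that fell, and others are given by rank.

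A gene was tested where 15 or more retained libraries of some cell type exceeded 1 CPM (15134 genes, all 150 members among them). Stages were compared with edgeR 4.0.16 (TMM, glmQLFit, glmQLFTest) in R 4.3.3, with all 3 stages in 1 fit per cell type, and p-values were adjusted by Benjamini-Hochberg over all genes tested. MGCs of the 10 follicles of the rule were kept out of the MGC test; CCs and oocytes of all retained follicles entered theirs. MGCs and CCs were compared with the follicle as block, since a follicle gave both libraries. DESeq2 1.42.0 was the alternative, beside other scalings, filters, prefix covariate and left-out follicles. On simulated counts with 200 genes changed 4-fold in medium follicles, edgeR recovered 169 in MGCs (14876 genes), 164 in CCs (15109) and 179 in oocytes (14936). It also called 7, 12 and 19 genes that had not been changed. Smaller changes were not simulated. The members' median difference in MGCs of the follicles of the rule was -1.01 on the log2 scale, near the fold threshold of 2, so recovery at that size is not known. Summaries used Python 3.11.15.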

Additional observations from a re-analysis of the deposited data

Results flagged for a closer look

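Library medians of the 150 genes and the levels of 15 members were searched for a sample far from the rest of its group. The groups held 4 to 6 samples. The 15 were among the members named or counted in the text, but were not all of them. Chance alone flags about 1 group in 20 where values vary, and 16 of 192 groups were flagged, none of them for a library median. The 192 include groups with 0 in every sample, such as rank 2 in oocytes, which cannot be flagged. The 2 rates are therefore not directly comparable. No explanation was tested.

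In MGCs, rank 1 stood apart at 15.8 CPM in M3 (other medium follicles 9.51 to 10.0) and at 0.372 CPM in L6 (other large follicles 21.9 to 67.2). Rank 126 was high at 6587 CPM in S3 (3370 to 3770), at 4914 CPM in M2 (3282 to 3679) and at 4760 CPM in L8 (2742 to 2874).

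In CCs, rank 21 was at 6.62 CPM in L5 (0.270 to 0.588 in the other large follicles of the rule) and rank 138 at 19.0 CPM in L8 (35.8 to 40.0).

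In oocytes, rank 1 was at 46.0 CPM in L6 (72.9 to 79.5) and rank 3 at 0.263 CPM in S1 (0 to 0.0522). Ranks 40 and 65 had 0 CPM in S8 (23.3 to 73.9 and 10.2 to 15.2), and rank 65 was at 17.9 CPM in L10 (24.4 to 25.5). Rank 58 was at 185 CPM in L9 (24.4 to 26.5) and at 91.9 CPM in L4 (11.5 to 24.7). Rank 108 was at 0.389 CPM in S3 (0 to 0.0445), and rank 138 had 0 CPM in L9 (9.41 to 11.6).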

How the results depend on the processing

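The count of genes that met the rule was 206, 337 on TMM-scaled CPM, and from 210 to 644 when 1 follicle was left out. Members called lower in medium than in small MGCs of the other follicles were 0 by edgeR, 3 by DESeq2 and 0 to 1 when 1 follicle was left out, the 1 being rank 21 without S8. Under the other settings (DESeq2, its size factors, no filter or filterByExpr, the prefix covariate, removed follicles added, other choices of members, left-out follicles) the counts lower in medium than in small and large together stayed at 0 in MGCs, CCs and oocytes, as did that against large MGCs. Leaving out 1 follicle, the median difference of the members lay between 0.00976 and 0.0934 for MGCs. For CCs these bounds were 0.0196 and 0.166, and for oocytes 0.0478 and 0.106. With the prefix covariate it was 0.149, 0.295 and 0.38. No label pairs follicles of different stages, and which of them shared an animal or a batch is not given, so stages were not compared in pairs. The prefix, which recurs across stages, entered as a covariate. Between MGCs and CCs of a follicle, 83 members were called higher in MGCs with the replicate block and 79 without it. The TMM scale and the left-out follicles of the rule were added after seeing the data.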
